A study of Mus musculus with 6 samples.

Results

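The 34 genes described here encode enzymes of sterol and fatty acid synthesis together with the proteins that regulate them, and were taken by name from the SREBP (sterol regulatory element-binding protein) pathway. All 34 were found among the 25124 gene symbols of the deposited expression table. They comprise 8 genes of the mevalonate steps, 11 of the steps from squalene to cholesterol, 7 regulators and sterol carriers, and 8 fatty acid enzymes. Transcript levels were measured by RNA-seq in RAW264.7, a macrophage-like mouse cell line from an Abelson virus-induced tumour, in 3 libraries labelled E4BP4 knockout and 3 labelled control. E4BP4 is the bZIP repressor encoded by Nfil3. Both groups were untreated cells of the same line, kept at low passage in high-glucose medium with fetal bovine serum. The sources used here do not give the editing method, the clonal or pooled origin of the line, or the independence of the replicate cultures. The p-values therefore describe only how far these libraries vary, and that variation may be technical.

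Cholesterol is built from acetyl-CoA through mevalonate, isoprenoid units, squalene and lanosterol, and fatty acids from acetyl-CoA through malonyl-CoA, followed by elongation and desaturation. The precursor proteins encoded by Srebf1 and Srebf2 are held in the endoplasmic reticulum with the escort protein Scap by Insig1 and Insig2 when sterols are plentiful. When sterols run low they move to the Golgi, are cleaved there by a pair of proteases, and enter the nucleus to switch on most of the genes listed here, often next to the CCAAT-binding factor NF-Y. The Srebf2 product favours sterol genes and the Srebf1 products favour fatty acid genes, and in macrophages the pathway is balanced against uptake and efflux of sterols through the liver X receptors.

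Depth was similar between libraries: 15615639 to 19867732 whole reads per library were recovered from the deposited TPM, a level in which reads are divided by transcript length and scaled to the library. Nfil3 measured 29.5, 29.9 and 31.0 TPM in the controls and 105, 104 and 99.8 TPM in the libraries labelled knockout. The targeted transcript was therefore higher, not lower, under the knockout label, and the directions below are those of the labels as given. Whether the knockout leaves the transcript in place or the labels were exchanged cannot be told apart here; with exchanged labels every fall described would be a rise. Of 8 macrophage markers, 7 had a mean of at least 1 TPM; Csf1r measured 248 ± 7.70 TPM in the controls and 159 ± 7.31 TPM under the knockout label (SD, n = 3 each). The exception was Mrc1, at 0.321 ± 0.014 and 0.836 ± 0.164 TPM. Csf1r, Adgre1, Itgam and Cd68 were called lower, Lyz2 and Spi1 were called higher and Ptprc did not pass. Summed, the 8 markers ran from 2328 to 2541 TPM in the controls and from 3294 to 3465 TPM under the knockout label, where Lyz2 alone rose from 1069 ± 78.3 to 2218 ± 49.2 TPM. Without Lyz2 the other 7 summed to 1311 to 1382 TPM in the controls and 1127 to 1199.55 TPM under the knockout label. The part of these shifts in the results below was not tested. None of 21 markers of T, B, fibroblast, epithelial, endothelial, fat or liver cells reached a mean of 1 TPM, and 17 stayed under 0.1 TPM in every library.

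Genes of sterol and fatty acid synthesis were lower, most of them less than 2-fold, in the libraries labelled knockout. In such bulk samples less RNA per cell and fewer cells of a kind cannot be told apart. Of 34 members, 32 passed the filter on low values (a TPM of at least 1 in at least 3 of the 6 libraries), and Scd1 and Elovl6 did not. In limma on log2(TPM + 1), 24 of the 32 were lower at an adjusted p under 0.05 and 8 did not pass, against 23.4% of all 11257 genes tested that were called lower. No member was called higher, against 26.7% of all genes tested; the number higher was also 0 at an unadjusted p under 0.05 and in limma-voom on the recovered reads. The median log2 fold change of the 32 members was −0.37 and that of all genes tested was 0.02. TPM ranges of the groups did not overlap for 24 members that were lower and for 1 that was higher, Ggps1, while 27.2% and 31.3% of all genes tested showed such a gap downward and upward. The called members ran from −0.99 for Acat2 to −0.15 for Tm7sf2 on the log2 scale.

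**Figure D1:**
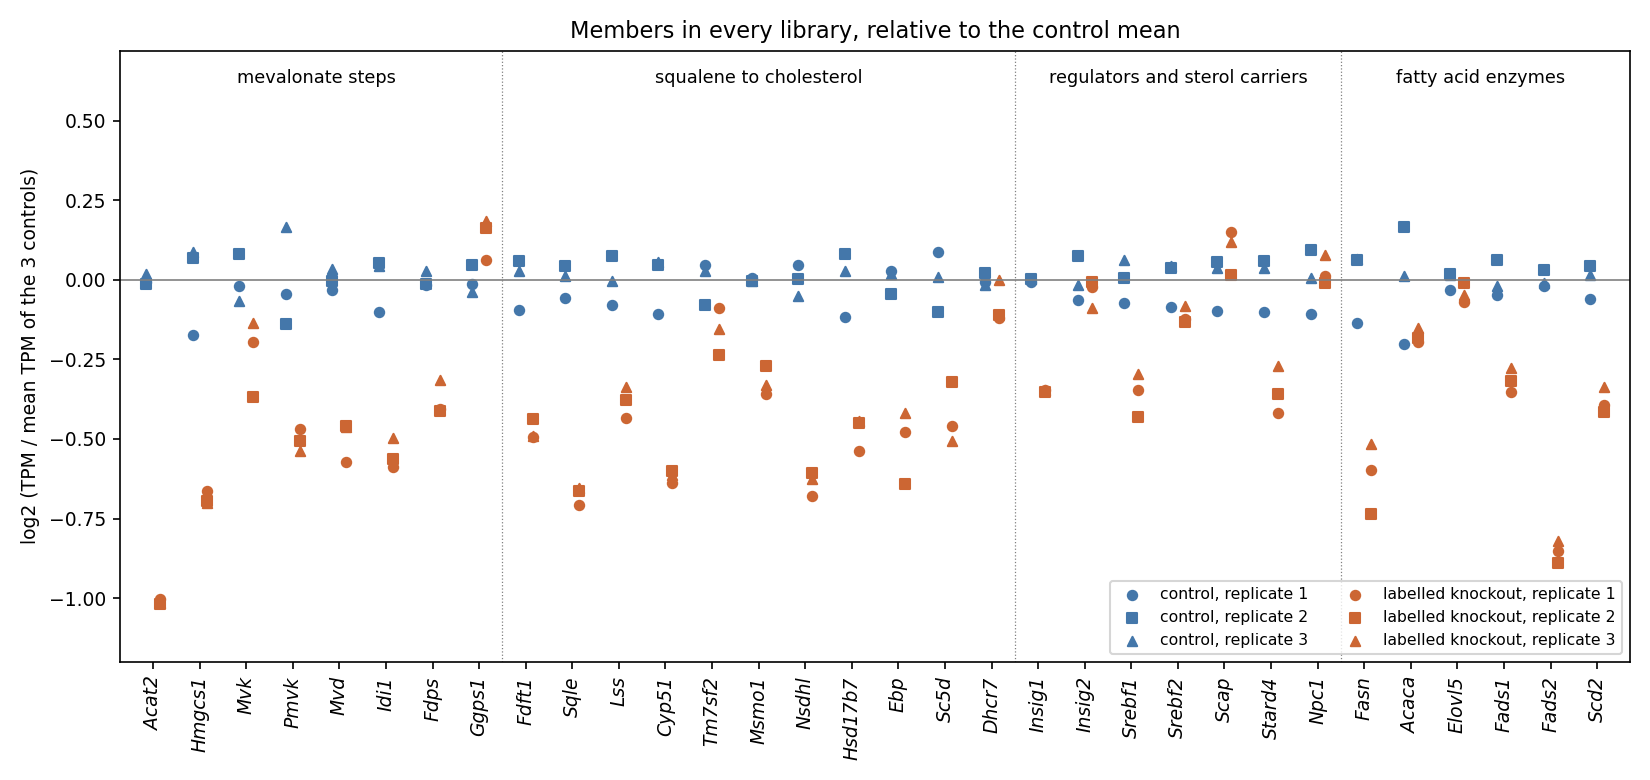
TPM of the 32 tested members in each library, as log2 of the ratio to the mean of the 3 controls (vertical axis), grouped by role along the horizontal axis; each marker is 1 library. The libraries labelled knockout lie below all 3 controls for 24 members, whereas Insig2, Srebf2, Scap, Npc1, Dhcr7, Acaca and Elovl5 overlap and Ggps1 lies above.

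By role, the sterol enzymes had the highest share of members called lower. Among the 19 sterol enzymes 17 were lower and 2 did not pass, with a median log2 fold change of −0.46. Among the regulators and sterol carriers 3 of 7 were lower and 4 did not pass, with a median of −0.11. Among the fatty acid enzymes 4 of 6 tested were lower and 2 did not pass, with a median of −0.35. The difference between roles was not tested, since genes are not replicates. Only Acat2 was at least 2-fold lower in mean TPM. Acat2, Hmgcs1, Sqle, Cyp51, Nsdhl, Fasn and Fads2, 7 of 32, were called and at least 1.5-fold lower, against 5.68% of all genes tested.

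**Figure D2:**
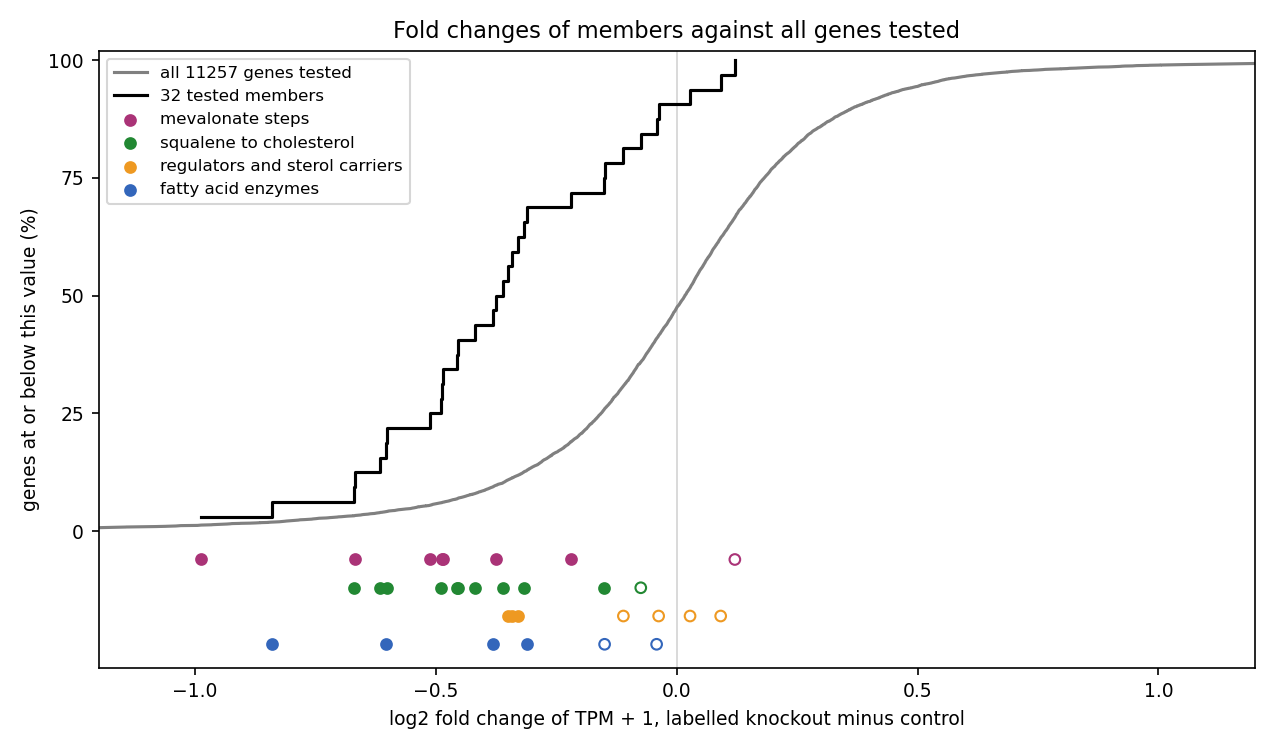
Cumulative share of genes (vertical axis, percent) at or below each log2 fold change of TPM + 1 (horizontal axis, labelled knockout minus control) for all 11257 genes tested and for the 32 tested members, with each member as a point by role below the curves. Filled points were called lower and open points did not pass; the medians are 0.02 for all genes and −0.37 for the members. Genes with larger changes lie outside the plotted range.

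Promoters of the genes were read for sequence motifs of the pathway's own regulators and of E4BP4. RefSeq promoters of GRCm38.p6 (the assembly of mm10), from 250 bases before to 50 after a transcript start, were matched by symbol for 26 of the 34 genes. Both strands were searched for TCACNCCAC, a form of the sterol regulatory element, CCAAT, the box bound by NF-Y, TCACGTGA, an E-box form, and TTATGTAA and TTACGTAA, D-box forms of the kind E4BP4 binds. A gene counted for a motif when any of its promoters matched. The CCAAT letters were present for 21 of the 26 genes (80.8%). They were present for 41.1% of all 27025 genes with a promoter in the table, and for 43.4% of the 8777 of those genes that were tested here. For Pmvk and Dhcr7, both among the 21, the only matching promoters started −4577 and 7047 bases from the deposited transcript start. TCACNCCAC was present for 1 of the 26, Hmgcs1, for 1.44% of all genes and for 1.34% of the tested genes. TTATGTAA, TTACGTAA and TCACGTGA were present for 0 of the 26. Their shares were 1.11%, 0.126% and 1.12% of all genes and 0.558%, 0.205% and 2.45% of the tested genes. A match of letters is not shown to be a bound site, and absence holds only for these letters in this window.

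The promoters shown are that of Hmgcs1, with the only TCACNCCAC match, and those of the 5 other genes with the smallest adjusted p among members with a promoter in the table. All start at the transcript start of the deposited table. Capitals mark TCACNCCAC and CCAAT on either strand, so that ATTGG is CCAAT read on the opposite strand; none of the marked matches overlapped. The lines run 5′ to 3′ on the strand of the gene: Hmgcs1 at chr13:119690101-119690400 (plus), Acat2 at chr17:12960676-12960975 (minus), Fads2 at chr19:10101454-10101753 (minus), Nsdhl at chrX:72918271-72918570 (plus), Cyp51 at chr5:4104648-4104947 (minus) and Mvd at chr8:122443373-122443672 (minus).
Hmgcs1: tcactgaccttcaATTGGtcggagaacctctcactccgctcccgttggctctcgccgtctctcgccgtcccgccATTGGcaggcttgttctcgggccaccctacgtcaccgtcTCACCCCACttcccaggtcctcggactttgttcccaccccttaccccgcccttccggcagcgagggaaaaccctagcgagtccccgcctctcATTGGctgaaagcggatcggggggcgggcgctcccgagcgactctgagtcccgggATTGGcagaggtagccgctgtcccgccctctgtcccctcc
Acat2: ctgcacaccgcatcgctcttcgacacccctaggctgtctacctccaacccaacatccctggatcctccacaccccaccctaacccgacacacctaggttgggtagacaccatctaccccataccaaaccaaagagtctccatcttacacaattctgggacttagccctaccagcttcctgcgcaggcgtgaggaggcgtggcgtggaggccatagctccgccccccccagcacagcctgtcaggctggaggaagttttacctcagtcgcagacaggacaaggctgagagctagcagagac
Fads2: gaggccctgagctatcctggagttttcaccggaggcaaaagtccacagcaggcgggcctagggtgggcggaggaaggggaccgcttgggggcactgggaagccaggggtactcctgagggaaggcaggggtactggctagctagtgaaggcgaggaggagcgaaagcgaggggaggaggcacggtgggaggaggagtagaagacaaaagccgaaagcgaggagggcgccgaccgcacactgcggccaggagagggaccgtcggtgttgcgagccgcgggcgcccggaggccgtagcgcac
Nsdhl: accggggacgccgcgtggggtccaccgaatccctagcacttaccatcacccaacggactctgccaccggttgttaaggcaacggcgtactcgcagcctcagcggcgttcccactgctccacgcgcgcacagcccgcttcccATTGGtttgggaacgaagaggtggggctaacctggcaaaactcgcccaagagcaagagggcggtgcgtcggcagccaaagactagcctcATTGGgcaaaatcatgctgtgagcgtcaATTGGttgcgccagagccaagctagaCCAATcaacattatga
Cyp51: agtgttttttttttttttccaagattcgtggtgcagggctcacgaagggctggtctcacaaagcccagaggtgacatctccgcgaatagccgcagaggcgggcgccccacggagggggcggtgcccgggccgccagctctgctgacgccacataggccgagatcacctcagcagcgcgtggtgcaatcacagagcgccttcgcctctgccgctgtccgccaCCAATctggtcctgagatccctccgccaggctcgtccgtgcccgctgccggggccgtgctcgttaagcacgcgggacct
Mvd: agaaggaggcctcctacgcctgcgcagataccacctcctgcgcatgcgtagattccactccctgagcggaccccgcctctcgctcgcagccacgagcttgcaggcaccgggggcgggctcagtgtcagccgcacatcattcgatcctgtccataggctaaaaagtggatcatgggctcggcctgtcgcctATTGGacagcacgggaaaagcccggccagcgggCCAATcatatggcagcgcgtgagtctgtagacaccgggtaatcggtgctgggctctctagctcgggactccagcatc

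In Hmgcs1 the TCACNCCAC match begins 137 bases before the transcript start, and its promoter holds 4 CCAAT matches. The Nsdhl promoter also holds 4, that of Mvd holds 2 and that of Cyp51 holds 1. The promoters of Acat2 and Fads2, the members with the largest falls, hold 0 of either motif.

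In the mevalonate steps, 7 of 8 genes were lower under the knockout label. Acat2 encodes the cytosolic thiolase that joins acetyl-CoA units at the head of the pathway (NM_009338, minus strand of chromosome 17, 12943042 to 12960725, 9 exons). It measured 56.8, 56.6 and 57.8 TPM in the controls and 28.5, 28.2 and 28.2 TPM in the libraries labelled knockout. The groups were far apart relative to the spread within them, and the log2 fold change of −0.99 (SE 0.0363, limma adjusted p = 6.46e-08) was the largest of any member. Of the 50-base windows of the Acat2 transcript in GENCODE M21, 45.9% also occur in Acat3, a neighbouring paralog, so the division of reads between the pair is uncertain. Acat3 measured 51.3 ± 3.82 TPM in the controls and 44.0 ± 1.23 TPM under the knockout label (SD, n = 3 each), a log2 fold change of −0.21 (limma adjusted p = 0.00889).

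Hmgcs1 encodes HMG-CoA synthase, an early enzyme of the pathway (NM_001291439, plus strand of chromosome 13, 119690351 to 119708260, 10 exons). It measured 55.1, 65.1 and 66.0 TPM in the controls and 39.2, 38.3 and 38.2 TPM under the knockout label. Control replicate 1 was the lowest of the controls, yet still above all 3 libraries labelled knockout. The log2 fold change was −0.67 (SE 0.0644, limma adjusted p = 2.69e-05). The next enzymes phosphorylate and decarboxylate mevalonate: Pmvk, phosphomevalonate kinase, and Mvd, the decarboxylase, both had log2 fold changes of −0.49. Mvk, mevalonate kinase, fell least of the called genes in this role, from 19.1 ± 1.02 to 16.3 ± 1.34 TPM (SD, n = 3 each), a log2 fold change of −0.22 (limma adjusted p = 0.0203). That call ended without control replicate 2 (adjusted p = 0.0661), without knockout replicate 2 (0.0698) and without the filter on low values (0.0577); over all alternatives the adjusted p of Mvk ran from 0.00295 to 0.0698.

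Idi1, the isomerase that interconverts the isoprenoid building blocks, fell from 16.7 ± 0.989 to 11.4 ± 0.372 TPM (SD, n = 3 each), a log2 fold change of −0.51. Fdps, which joins them into farnesyl diphosphate, was the most abundant gene of the mevalonate steps. It fell from 328 ± 5.71 to 252.5 ± 9.71 TPM (SD, n = 3 each), by 0.38 on the log2 scale. Most of its sequence is not unique: 82.0% of the windows of its transcript also occur in transcripts of other genes, 71.7% in the predicted gene Gm43738 alone. Ggps1, which extends farnesyl to geranylgeranyl diphosphate and so leads away from sterols, was the exception among these genes. It measured 6.92, 7.21 and 6.80 TPM in the controls and 7.28, 7.81 and 7.94 TPM under the knockout label. Its log2 fold change was 0.12 (95% interval −0.01 to 0.25, limma adjusted p = 0.121).

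From squalene to cholesterol, 10 of 11 genes were lower. Fdft1, squalene synthase, commits farnesyl units to sterols (NM_001360211, minus strand of chromosome 14, 63145151 to 63177887). It measured 31.6, 35.2 and 34.4 TPM in the controls and 24.0, 24.9 and 24.0 TPM under the knockout label, with no overlap and a log2 fold change of −0.46 (limma adjusted p = 5.66e-05). Its longest transcript in GENCODE M21 overlaps exons of Ctsb, cathepsin B, over 774 bases on the opposite strand. The library kit does not mark strand, and Ctsb was far more abundant, at 854 ± 16.3 and 881 ± 14.6 TPM (SD, n = 3 each); its part in the Fdft1 value was not tested.

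Sqle, squalene epoxidase, catalyses the first oxygen-dependent step (NM_009270, plus strand of chromosome 15, 59315092 to 59331193, 11 exons). It measured 210.4, 226 and 221 TPM in the controls and 134, 138 and 139 TPM under the knockout label. The fall, −0.67 on the log2 scale (SE 0.0381, limma adjusted p = 9.63e-07), had the same value as that of Hmgcs1. Lss, which closes the ring system to lanosterol, had a log2 fold change of −0.36.

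Cyp51, the lanosterol demethylase, measured 50.2, 55.8 and 56.2 TPM in the controls and 34.7, 35.7 and 35.4 TPM under the knockout label (NM_020010, minus strand of chromosome 5, 4080674 to 4104697, 10 exons). Its lowest control was well above its highest value under the knockout label, and the log2 fold change was −0.60 (limma adjusted p = 9.80e-06).

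Tm7sf2, the reductase that acts directly after Cyp51, fell from 20.1 ± 0.923 to 17.99 ± 0.909 TPM (SD, n = 3 each), by 0.15 on the log2 scale. Its limma adjusted p of 0.0426 was the highest of the 24 called. The call ended without control replicate 1 (adjusted p = 0.0994) or 3 (0.117) and without knockout replicate 2 (0.147) or 3 (0.0859). It also ended in limma without a trend (0.0574) and without the filter on low values (0.0779). Over all alternatives the adjusted p of Tm7sf2 ran from 0.0246 to 0.152. The authors' deposited table did not call Tm7sf2 either (adjusted p = 0.152).

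Nsdhl, a dehydrogenase of the demethylation of carbon 4, measured 39.1, 37.9 and 36.5 TPM in the controls and 23.6, 24.9 and 24.5 TPM under the knockout label (NM_010941, plus strand of chromosome X, 72918521 to 72958528, 8 exons). The log2 fold change of Nsdhl was −0.62 (limma adjusted p = 4.12e-06). Of its partners in the same demethylation, Hsd17b7, the ketoreductase, fell by 0.45 and Msmo1, the methyl oxidase, by 0.32 on the log2 scale. Msmo1 was among the most abundant members, at 170.5 ± 0.672 TPM in the controls (SD, n = 3).

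In the steps after the demethylation of carbon 4, Ebp, the sterol isomerase, and Sc5d, the desaturase, fell by 0.49 and 0.42 on the log2 scale. Dhcr7, a reductase that acts at the end of the pathway, measured 44.4 ± 0.583 TPM in the controls and 42.1 ± 1.96 TPM under the knockout label (SD, n = 3 each). It did not pass, with a log2 fold change of −0.07 (95% interval −0.17 to 0.02, limma adjusted p = 0.182). Summed over all 19 sterol enzymes, the level was 1269, 1298 and 1317 TPM in the controls and 919.5, 935 and 950.2 TPM under the knockout label, 1.38-fold lower in the mean.

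Among the regulators, Insig1, Srebf1 and Stard4 were lower, and Srebf2, Insig2, Scap and Npc1 did not pass. Insig1, the retention factor that is itself switched on by SREBPs, measured 64.3, 64.8 and 64.8 TPM in the controls and 50.9, 50.6 and 50.9 TPM under the knockout label (NM_153526, plus strand of chromosome 5, 28071412 to 28078662, 5 exons). Replicates of Insig1 differed very little, and the groups were clearly apart (log2 fold change −0.34, SE 0.0341, limma adjusted p = 3.31e-05). Insig2, the paralog that works in the same complex, measured 36.9, 40.7 and 38.2 TPM in the controls and 38.0, 38.4 and 36.3 TPM under the knockout label. These ranges overlapped, with a log2 fold change of −0.04 (95% interval −0.14 to 0.07, limma adjusted p = 0.535).

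Srebf1 measured 68.4, 72.1 and 75.1 TPM in the controls and 56.6, 53.3 and 58.5 TPM under the knockout label (NM_001358315, minus strand of chromosome 11, 60199084 to 60222581). The groups did not overlap (log2 fold change −0.35, SE 0.0488, limma adjusted p = 2.81e-04). The gene has alternative first exons that give the SREBP-1a and SREBP-1c proteins, which a gene-level value does not separate. Srebf2 measured 141, 153 and 154 TPM in the controls and 137, 136 and 141 TPM under the knockout label (NM_033218, plus strand of chromosome 15, 82147269 to 82204960, 19 exons). Control replicate 1 lay within the range of the libraries labelled knockout. The log2 fold change of Srebf2 was −0.11 (95% interval −0.21 to −0.02) and missed the threshold (limma adjusted p = 0.0532), whereas it passed without control replicate 1 (log2 fold change −0.15, adjusted p = 0.00519) and in the authors' deposited table (−0.13, adjusted p = 0.00376). Over all alternatives the adjusted p of Srebf2 ran from 0.00376 to 0.167.

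Scap, the escort protein, measured 13.9, 15.4 and 15.25 TPM in the controls and 16.5, 15.0 and 16.1 TPM under the knockout label, a log2 fold change of 0.09 (95% interval −0.04 to 0.22, limma adjusted p = 0.221). The exons of Scap overlap 785 bases of 5830462I19Rik on the opposite strand. Of the sterol carriers, Stard4, a soluble cholesterol transfer protein, fell from 22.3 ± 1.32 to 17.5 ± 0.905 TPM (SD, n = 3 each), a log2 fold change of −0.33 (limma adjusted p = 0.00115). Npc1, which exports cholesterol from lysosomes, measured 25.3 ± 1.78 and 25.8 ± 0.809 TPM (SD, n = 3 each), a log2 fold change of 0.03 (95% interval −0.10 to 0.15, limma adjusted p = 0.702).

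Fatty acid enzymes split between large falls, small falls and no call. Fasn, fatty acid synthase, measured 74.2, 85.2 and 85.4 TPM in the controls and 54.0, 49.0 and 57.0 TPM under the knockout label (NM_007988, minus strand of chromosome 11, 120805958 to 120824547, 43 exons). The groups did not overlap, with control replicate 1 again the lowest control (log2 fold change −0.60, SE 0.0681, limma adjusted p = 7.27e-05). Acaca, acetyl-CoA carboxylase, supplies the malonyl-CoA that Fasn uses, and measured 6.91, 8.93 and 8.02 TPM in the controls and 6.94, 7.01 and 7.16 TPM under the knockout label. Acaca did not pass (log2 fold change −0.15, 95% interval −0.33 to 0.03, limma adjusted p = 0.156), but was called lower without control replicate 1 (adjusted p = 0.0183) and in the authors' deposited table (adjusted p = 0.0387). Over all alternatives the adjusted p of Acaca ran from 0.0105 to 0.458. Of the windows of the Acaca transcript, 55.4% also occur in the predicted gene Gm5182.

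Fads2, the desaturase that opens the conversion of dietary polyunsaturated fatty acids to longer ones, measured 79.1, 81.8 and 79.5 TPM in the controls and 44.4, 43.3 and 45.4 TPM under the knockout label (NM_019699, minus strand of chromosome 19, 10062765 to 10101503, 12 exons). All 3 controls were above 79 TPM and all 3 libraries labelled knockout below 46 TPM. The log2 fold change of −0.84 (SE 0.0374, limma adjusted p = 1.98e-07) was next in size to that of Acat2. Fads1, the desaturase that acts later in the same conversion, lies on the plus strand of the same chromosome (10182888 to 10196872). It measured 93.8, 101 and 95.8 TPM in the controls and 76.0, 77.9 and 79.9 TPM under the knockout label, also without overlap (log2 fold change −0.31, limma adjusted p = 1.99e-04). Elovl5, the elongase that works between them, measured 71.25 ± 1.33 and 69.2 ± 1.49 TPM (SD, n = 3 each), a log2 fold change of −0.04 (95% interval −0.12 to 0.04, limma adjusted p = 0.368).

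Scd2, a stearoyl-CoA desaturase that puts the first double bond into saturated fatty acids, was the most abundant of the 34 genes (NM_009128, plus strand of chromosome 19, 44293676 to 44306862, 6 exons). It measured 586, 630.4 and 618 TPM in the controls and 466, 458 and 484 TPM under the knockout label, from 44566 to 51997 and 39089 to 42920 recovered reads. Each library labelled knockout was below each control (log2 fold change −0.38, SE 0.0399, limma adjusted p = 4.58e-05). The paralog Scd1, on the minus strand of the same chromosome (44394450 to 44407709), was near 0 in every library: 0.132, 0.082 and 0.047 TPM from 10, 6 and 3 reads in the controls and 0.067, 0.074 and 0.089 TPM from 5, 6 and 7 reads under the knockout label. Of the windows of Scd2, 4.0% occur in transcripts of other genes, 2.7% in Scd1. Elovl6, the elongase of saturated chains, had 0 or 1 read in each library, at most 0.013 TPM, and no difference was detectable at this depth.

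**Figure D3:**
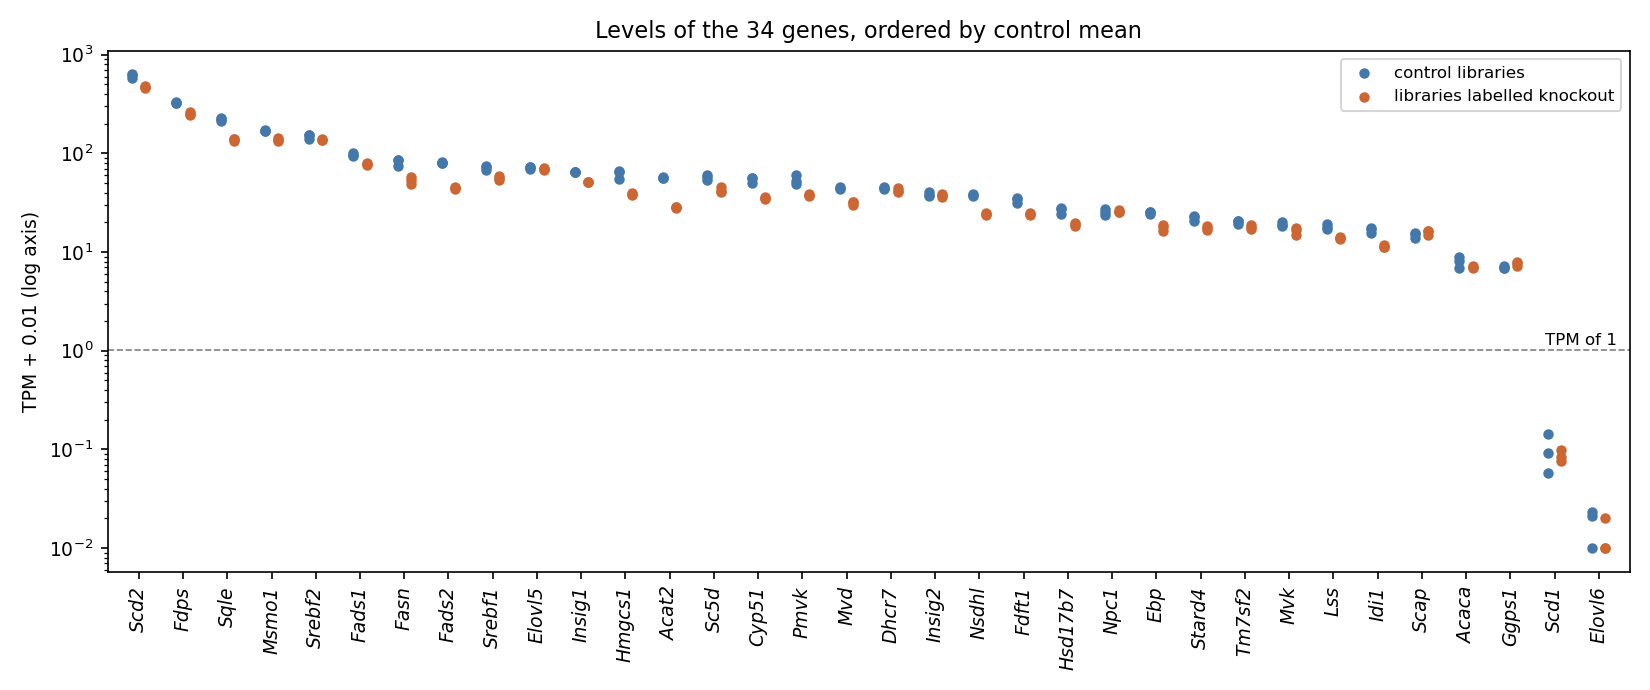
TPM + 0.01 on a log axis (vertical) of all 34 genes, ordered by their control mean from left to right; each point is 1 library, and the dashed line marks a TPM of 1. Scd2 lies highest, at 586 to 630.4 TPM in the controls, and Scd1 and Elovl6 lie below a TPM of 1 in all 6 libraries.

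TPM is a level per transcript length, so levels can be set side by side between genes. The deposited values summed to 551257 to 556083 per library, short of the total that the name TPM implies. They are therefore read here as relative levels, not as shares of all transcripts. Places in the order are less certain for genes that share sequence with others, such as Fdps (82.0% of windows) and Acaca (55.4%). In the controls the order began with Scd2 (612 ± 22.7 TPM), Fdps (328 ± 5.71), Sqle (219 ± 7.85), Msmo1 (170.5 ± 0.672) and Srebf2 (149 ± 7.30), each above the next by more than the SDs (n = 3 each). Fads1 followed at 96.95 ± 3.85 TPM. Neighbours further down often did not differ beyond their spread: Fasn (81.6 ± 6.39) and Fads2 (80.1 ± 1.48), Srebf1 (71.9 ± 3.35) and Elovl5 (71.25 ± 1.33), and Insig1 (64.7 ± 0.319) and Hmgcs1 (62.1 ± 6.06). Acat2 and Sc5d both measured 57.1 TPM in the controls, but 28.3 ± 0.141 and 42.5 ± 2.90 TPM under the knockout label. Of tested members, Acaca and Ggps1 were the lowest, with control means of 7.95 and 6.975 TPM.

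Related members were compared within each library for 5 pairs. The difference Srebf1 minus Srebf2 on log2(TPM + 1) was −1.03, −1.08 and −1.03 in the controls and −1.26, −1.34 and −1.26 under the knockout label, a shift of −0.24. Insig1 minus Insig2 was 0.78, 0.66 and 0.75 in the controls and 0.41, 0.39 and 0.48 under the knockout label, a shift of −0.30. For both pairs the groups did not overlap: the called member stood lower relative to its paralog in all 3 libraries labelled knockout. Fads1 minus Fads2 was 0.24, 0.30 and 0.27 in the controls and 0.76, 0.83 and 0.80 under the knockout label, a shift of 0.53, the largest of the 5. In exact two-sided permutation tests these 3 pairs each gave p = 0.1, the smallest that 3 against 3 libraries allow, and 0.125 after adjustment over the 5 pairs. Scd1 minus Scd2 shifted by 0.37 (exact permutation p = 0.1) and Elovl5 minus Elovl6 by −0.04 (exact permutation p = 0.2), but Scd1 and Elovl6 were near 0, so these shifts follow Scd2 and Elovl5 alone.

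**Figure D4:**
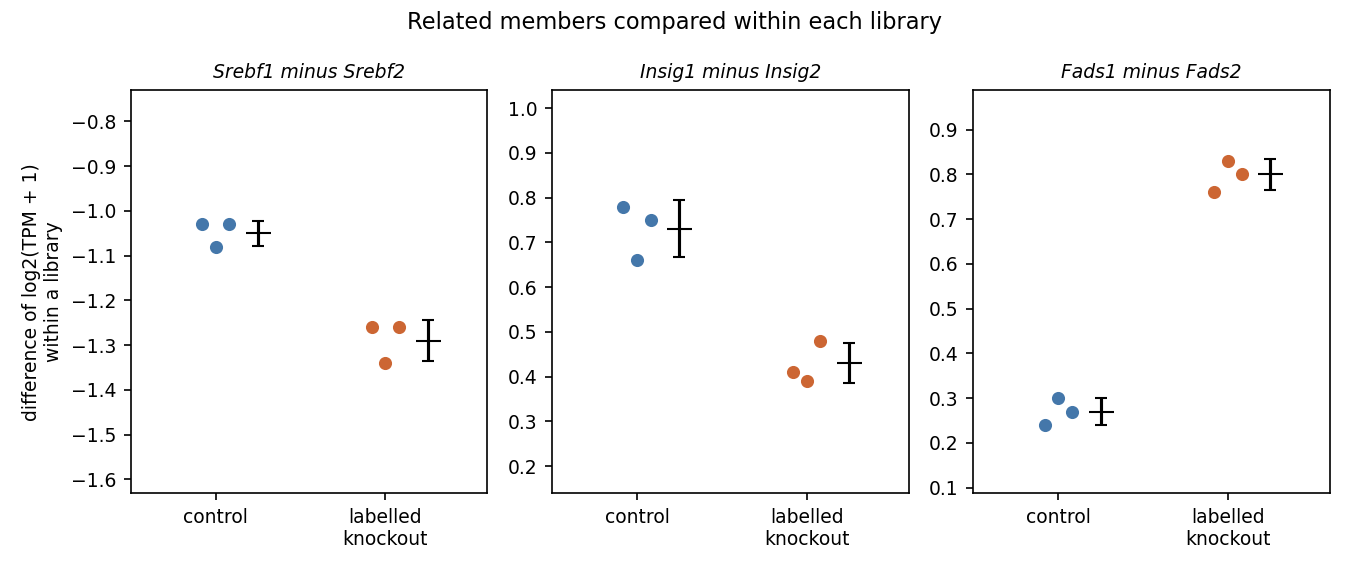
Difference of log2(TPM + 1) between 2 related genes within each library (vertical axis) for Srebf1 minus Srebf2, Insig1 minus Insig2 and Fads1 minus Fads2; points are libraries, and the bars beside them are mean ± SD (n = 3). The axes span equal ranges and do not start at 0; the groups are apart in each panel, by −0.24, −0.30 and 0.53.

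Among the controls 1 library was often the lowest. Control replicate 1 held the lowest of the 3 control values for 22 of the 32 tested members, against 49.6% of all genes tested. The median coefficient of variation of the tested members was 4.8% in the controls and 3.1% under the knockout label, against 5.5% and 4.3% for all genes tested. The smallest were those of Msmo1 in the controls and Insig1 under the knockout label, at 0.39% and 0.26%. Tested members rested on means of 433.3 to 48935 recovered reads per control library, with 7 of 32 under 1000 reads.

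The authors' deposited table gave similar values. It called 25 of the 34 lower and 0 higher, against 14.2% lower and 14.2% higher of the 18983 genes with a fold change there. For 31 of 34 genes it and limma gave the same call, counting Scd1 and Elovl6 as not called; the exceptions were Tm7sf2, Srebf2 and Acaca. Its log2 fold changes differed from those given here by at most 0.05 among tested members, although 7 of the 34 genes were listed there under another transcript.

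Reads could be shared with other genes for some members. Of the 34, 16 had no 50-base window in transcripts of another gene, 25 had at most 5% of windows shared and 8 had over 10%. Beside Acat2, Fdps and Acaca these were Fdft1 and Idi1 (30.7% and 30.5%), Hmgcs1 (14.5%, in the opposite-strand gene Gm48342), Scap (13.1%) and Ggps1 (11.8%). The sterol enzymes with no shared window were Mvk, Pmvk, Mvd, Sqle, Tm7sf2, Msmo1, Nsdhl, Hsd17b7, Ebp and Dhcr7. Apart from Dhcr7 all of these were called lower, with log2 fold changes from −0.67 for Sqle to −0.15 for Tm7sf2. Exons of 10 of the 34 overlap a gene on the opposite strand.

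Genes around the pathway were read from 4 further lists. Of 30 other SREBP-linked and lipogenic genes, 26 were tested; 18 were lower (69.2%) and 1 was higher (3.8%), against 23.4% and 26.7% of all genes tested, with a median log2 fold change of −0.27. Pcyt2, which makes the activated ethanolamine of phosphatidylethanolamine, fell from 74.4 ± 1.07 to 41.4 ± 0.634 TPM (SD, n = 3 each), a log2 fold change of −0.83 (limma adjusted p = 1.70e-07). Acsl5, a long-chain acyl-CoA synthetase, and Aacs, acetoacetyl-CoA synthetase, had log2 fold changes of −0.46 and −0.55 (limma adjusted p = 7.81e-06 and 1.89e-05). The gene of this list called higher was Mid1ip1 (log2 fold change 0.19, limma adjusted p = 0.00882). The SREBP processing and sterol sensing list was mixed: 4 of 22 were lower (18.2%) and 5 higher (22.7%), shares near those of all genes tested, with a median of 0.00. Rnf145, a sterol-sensing ubiquitin ligase, Npc2, the lysosomal partner of Npc1, and Pgrmc1, a haem-binding membrane protein, fell by 0.44, 0.34 and 0.22 on the log2 scale. Called higher were Soat1, which esterifies cholesterol (log2 fold change 0.30), the SREBP proteases Mbtps1 (0.21) and Mbtps2 (0.16), Sec23a, a coat protein of transport vesicles (0.16), and Erlin1, a membrane protein of the endoplasmic reticulum (0.12).

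The isoprenoid branches, which use the products of Fdps and Ggps1 for protein prenylation, dolichol and ubiquinone, had 2 of 13 lower (15.4%) and 4 higher (30.8%), against 23.4% and 26.7% of all genes tested, with a median of 0.03. The prenyltransferase subunits Rabggta, Pggt1b and Fnta rose by 0.36, 0.21 and 0.17 on the log2 scale. Dhdds, of dolichol synthesis, and Pdss1, of ubiquinone synthesis, fell by 0.17 and 0.16. In the list of liver X receptors, their partners and their targets, 5 of 10 were higher and 1 was lower, against 26.7% and 23.4% of all genes tested, with a median of 0.16. Of the 5 that were higher, 4 were the receptors and partners themselves: Nr1h2, Nr1h3, Rxra and Rxrb. Of these Nr1h3 was near the filter limit, at 0.90 ± 0.094 TPM in the controls and 1.49 ± 0.251 TPM under the knockout label (SD, n = 3 each). Those values rest on 22 to 23 and 36 to 47 reads per library. Among the 6 genes listed as targets Smpdl3a was called higher and Mylip, a ubiquitin ligase, was called lower (log2 fold change −0.24, limma adjusted p = 0.00373). Abca1, Abcg1, Apoe and Scarb1 did not pass. Whether the receptors regulate these genes in this line was not tested. Smpdl3a, a phosphodiesterase, rose from 4.06 ± 0.431 to 7.89 ± 0.599 TPM (SD, n = 3 each), a log2 fold change of 0.81 (limma adjusted p = 3.74e-05). Rxrb, a partner receptor, and Nr1h2, liver X receptor beta, rose by 0.38 and 0.33. The cholesterol exporter genes Abca1 and Abcg1 had log2 fold changes of −0.12 and 0.06 (limma adjusted p = 0.176 and 0.322).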

How the data were processed

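RNA of 6 libraries (3 labelled knockout, 3 labelled control) was measured. The authors deposited TPM values for 25124 gene symbols, listing for each a RefSeq transcript with mm10 position and length, and a second table of 24421 symbols with log2 values per library, log2 fold changes, p-values and adjusted p-values of their own comparison, per the file headers. The submitters' processing notes name STAR 2.7.5a, HOMER 4.11.1, DESeq2 and mm10 without roles. No source used here says how strand or multiply matching reads were handled.

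The main test covered all 11257 genes with a TPM of at least 1 in at least 3 libraries. It was limma's two-sided moderated test with trend (version 3.58.1, R 4.3.3) on log2(TPM + 1), without covariates. Benjamini-Hochberg adjustment was used with a threshold of 0.05. The calculation was also run on simulated data. Far fewer genes changed there than were called here, so that run does not vouch for these calls. Fold changes on the log2(TPM + 1) scale understate those of low genes. Ratios given as fold are of mean TPM. The header of the authors' comparison names its groups WT and TG; TG was read as the knockout columns from the sign of the values. Whole reads were recovered from TPM times length: 100% of the values checked lay within 0.1 of a whole number. They serve for depth and for 1 alternative. All per-sample columns were used. Same-numbered libraries did not deviate together, so no pairing was used.

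Members and lists were chosen with earlier results of these data known. Values in every library were given for members at least 1.5-fold different and for Srebf1, Srebf2, Scap, Insig1, Insig2, Hmgcs1, Sqle, Fdft1, Fasn, Scd1 and Scd2 whatever their values; those of Ggps1, Acaca and Fads1, and the values of Acat3, Ctsb, Lyz2, Abca1, Abcg1 and the other list genes named beyond the rule, were added after they were seen. The 3 genes of each further list with the smallest adjusted p were named by rule. Some other genes of the pathway are not reported here. Alternatives were a pseudocount of 0.1, no filter, a TPM minimum of 5, upper-quartile and median-ratio scaling, the deposited log2 values, limma-voom on recovered reads, the authors' comparison, no trend, a replicate block and leaving out each library.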

Additional observations from a re-analysis of the deposited data

How the results depend on the processing

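The number of members called lower was 24 and lay between 22 and 26 under every alternative run; the number called higher was 0 under each of them. Leaving out each library in turn gave 22 to 25 lower. A block for the replicate number gave 24 and changed no call of a member. Same-numbered libraries did not deviate together (correlations across genes of −0.013, −0.058 and 0.003). These correlations cannot tell whether the numbers marked a pairing in the experiment. Of the 512 recomputed fold changes of single members, 489 kept direction and side of the threshold. Calls were lost 10 times, all for Mvk and Tm7sf2, and gained 11 times, all for Srebf2 and Acaca. Signs turned for values near 0: leaving out each library gave −0.068 to 1.7e-05 for Insig2 (highest without control replicate 2) and −0.023 to 0.074 for Npc1 (lowest without control replicate 1), and the shift of Elovl5 minus Elovl6 was 0.02 with a pseudocount of 0.1. The median log2 fold change of all genes moved from 0.017 to −0.002 with upper-quartile and to 0.005 with median-ratio scaling, and no called member changed direction. Depth limits Scd1 and Elovl6, at 10 or fewer reads per library.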
